A study of Mus musculus with 6 samples.

Results

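In mouse melanocyte libraries 1560 small RNA rows were tabulated. Of these, 47 were named for an arm of a mouse microRNA precursor and not for an annotated mature microRNA. They were chosen by name alone: a lower-case mir, a precursor number of 500 or above and an arm, p5 for the 5′ side or p3 for the 3′ side. 4 further lower-case rows, whose precursors carry lower numbers, were left out. The 47 rows, which held 44 distinct sequences, came from 41 precursors, with 16 on the p5 arm and 31 on the p3 arm. The deposited table does not spell out this form of name, which was read here as an arm with no annotated mature sequence.

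The libraries came from melan-alpha, a line of immortal, pigmented melanocytes labelled as mouse skin. MITF, a transcription factor at the head of the pigment cell programme, was overexpressed in 3 libraries through infection with a lentivirus that held the mouse gene, and 3 libraries were labelled Mitf_control. The labels give no promoter for the transgene, no empty-vector treatment for the controls and no statement on clones or separate cultures, so p-values measure the spread between these libraries, which may be technical. All libraries are labelled as extracellular vesicle RNA from cells grown with 10% fetal bovine serum, whereas the extraction protocol describes cells that were collected and washed, and no isolation of vesicles is described.

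A microRNA precursor folds into a hairpin whose arms each give a short strand of which usually one is kept, and the kept strand pairs with messenger RNAs mainly through its seed, bases 2 to 8. Catalogues of microRNAs grew by sequencing, and several high-numbered mouse entries overlap ribosomal RNA, transfer RNA or interspersed repeats such as the B1 and B2 elements. A sequence from such an entry can therefore be a piece of another RNA as well as a hairpin product.

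The first sequences shown are the rows that held most of the reads and rows whose sequence recurs in the transcripts of other genes, with mir-1983-p5, whose precursor is known to overlap a transfer RNA gene. They are written 5′ to 3′ as deposited, with the seed in capitals.
mir-6240-p5: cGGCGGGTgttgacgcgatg
mir-5108-p3: aATGGGGGtagagcactg
mir-6236-p5: aATGGATGgcgctggagcgtcggg
mir-692-2-p3: cGACTAGGaggcctctgta
mir-692-2-p5: cAGACTGGcgcgccccaggggt
mir-3470b-p5: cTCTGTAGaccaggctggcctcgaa
mir-3470b-p3: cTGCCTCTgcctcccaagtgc
mir-5098-p3: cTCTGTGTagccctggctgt
mir-1983-p5: cAATCGGTtagcgcgcggta

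The 2 mir-6240 rows were not opposite strands of a duplex. The row named p3 was the row named p5 with 5 bases added at its 3′ end, so both have the same seed, and both began at base 47 of the 117-base hairpin. The added bases are in capitals in the row, and the stretch that the longer row covers is in capitals in the hairpin. The hairpin was taken from RefSeq (GRCm38.p6, chr5:114851948-114852064, plus strand) and lies in no annotated protein-coding or long noncoding gene.
mir-6240-p3: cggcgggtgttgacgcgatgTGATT
Mir6240 hairpin: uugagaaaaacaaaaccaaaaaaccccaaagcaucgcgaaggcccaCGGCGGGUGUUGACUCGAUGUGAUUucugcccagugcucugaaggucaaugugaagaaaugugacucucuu
Both rows differed from the hairpin by T15G, given as the hairpin base, the position counted from the row's 5′ end and the row's base. The middle of the hairpin is its base 59, the shorter row was centred on base 56.5 and the longer row on base 59, while their names give different arms.

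The other sequences shown share a stretch with each other or with an annotated microRNA, in capitals. The stretch of 17 bases was common to 4 of the 47 rows (mir-3473f-p3 had the same sequence as mir-1934-p3) and to 1 annotated row, miR-3473a.
mir-690-p3: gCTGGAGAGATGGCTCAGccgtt
mir-6413-p3: CTGGAGAGATGGCTCAGt
mir-1934-p3: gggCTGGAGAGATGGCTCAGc
mir-3970-p5: TGAGGTAGTAGTTTGTGCTt
let-7i-5p: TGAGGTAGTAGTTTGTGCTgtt
The row mir-3970-p5 shared its first 19 bases, seed included, with let-7i-5p, an abundant microRNA whose level was 29674 ± 1983 CPM with MITF overexpression and 34253 ± 3487 CPM in control libraries (SD, n = 3 each). Against its own hairpin this row had the substitution T7A, and it held 4 reads in 1 MITF overexpression library and 2.5 in 1 control library. CPM is the read count scaled to a common library total with factors from the trimmed mean of M values (TMM).

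The libraries held 10030115 to 16275268 raw reads. Tabulated reads numbered 448969, 279142 and 306062 in MITF overexpression libraries 1, 2 and 3, against 342941, 382350 and 475977 in control libraries 1, 2 and 3. The melanocyte marker miR-211-5p, encoded inside Trpm1, lay between 4220 and 5220 CPM with MITF overexpression, against 1880 to 2640 CPM in controls, and miR-211-3p between 171 and 431 CPM, against 52 to 75 CPM. All 4 markers of other sources were also above the controls in every MITF overexpression library. The liver microRNA miR-122-5p was at 22727 to 102960 CPM, against 8848 to 16385 CPM in controls. Of the red cell microRNAs, miR-451a was at 1707 to 3674 CPM, against 497 to 865 CPM in controls, miR-144-3p at 689 to 1369 CPM, against 173 to 435 CPM, and miR-486b-5p at 1093 to 1847 CPM, against 626 to 772 CPM. No marker was at 0, and the part of these sources in the results below was not tested.

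The 47 rows took a small share of the reads, most of it from 3 precursors. Their share of tabulated reads was 2.02%, 2.13% and 1.32% with MITF overexpression, against 1.78%, 2.80% and 2.37% in control libraries. The groups overlapped, and the widest half-width of the Wilson 95% intervals was 0.0536 percentage points, which covers counting error only. The rows of mir-6240, mir-5108 and mir-6236 held 89.1%, 82.9% and 83.7% of the members' reads with MITF overexpression, against 94.2%, 94.9% and 94.0% in control libraries. That share was below every control library in each MITF overexpression library.

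Detection was uneven. Above 0 were 30, 28 and 26 of the 47 rows in the MITF overexpression libraries, against 17, 17 and 23 in the control libraries, without overlap. The whole table did the same, with 992, 860 and 783 of 1560 rows above 0 with MITF overexpression, against 513, 612 and 677 in controls. 22 rows (46.8%) had reads with MITF overexpression only, and 7 (14.9%) in controls only. Over the whole table these shares were 46.7% and 8.78%, so the first was close to the background. The highest value of any row seen with MITF overexpression only was 21 reads in a library, and of any row seen in controls only 7 reads.

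15 of the 47 rows had enough reads to be tested, and 32 did not. Of the 15, 1 was higher with MITF overexpression (mir-5112-p5) and 1 was lower (mir-6240-p5) in edgeR's quasi-likelihood test, with Benjamini-Hochberg adjustment over 441 rows and a threshold of 0.05. Of all tested rows 15.2% were called, 44 higher (9.98%) and 23 lower (5.22%), so the members' count was close to the background. Scaling to the total count gave 62 higher and 15 lower rows, and leaving out the most abundant row before scaling gave 44 and 37. Of the 441 rows, edgeR called 67, whereas without MITF overexpression library 3 it called none of 495 tested rows (135 at an unadjusted p below 0.05), without MITF overexpression library 2 it called 14 and without control library 2 it called 11. At an unadjusted p below 0.05, 4 of the 15 members passed, against 34.5% of all tested rows, and DESeq2 called 3 members after adjustment, against 24.9% of all tested rows. Of the 15 rows, 7 had groups that did not overlap, 6 above the controls and 1 below. Of all 441 tested rows 42.4% had such groups, 111 above the controls and 76 below. The median log2 fold change (MITF overexpression minus control) was 0.61 over the 15 rows, against 0.08 over all tested rows and -0.09 over 269 annotated mouse rows. A row can pass the filter on reads through the group in which it is high, and nothing particular to the 15 is read from these counts or this median.

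**Figure D1:**
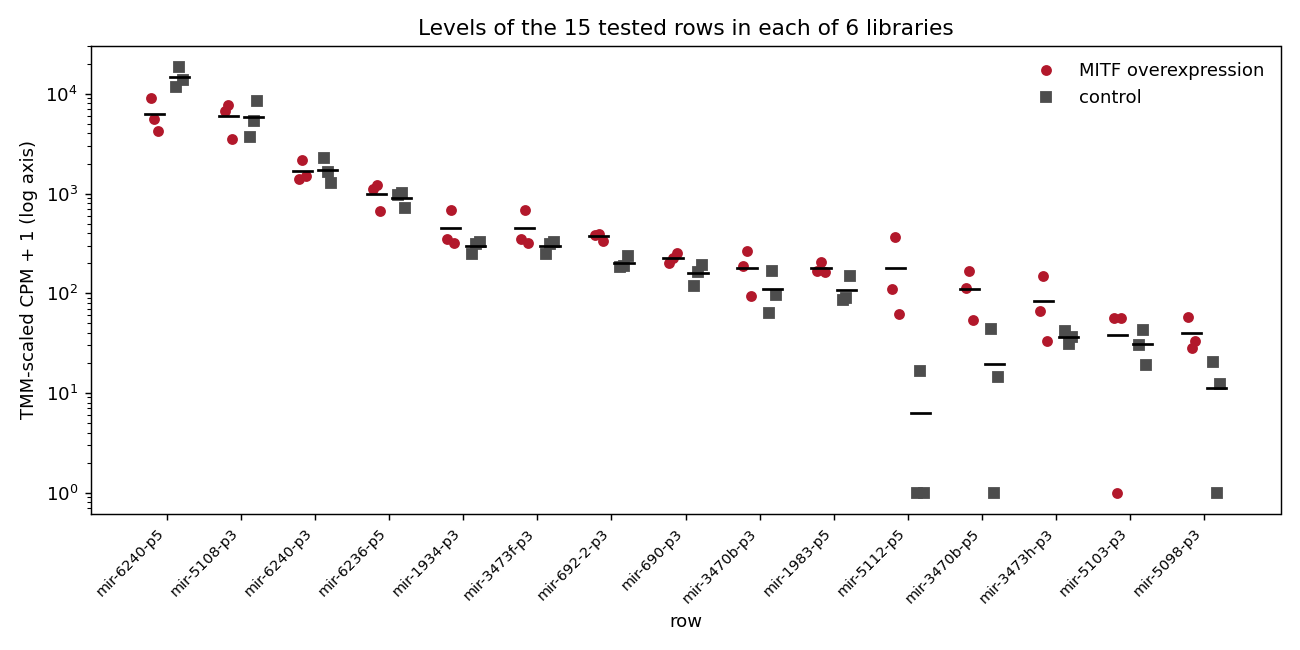
Level of each of the 15 tested rows (CPM after TMM scaling, plus 1, log axis) in the 3 MITF overexpression libraries (circles, left of each pair) and the 3 control libraries (squares), with group means as bars. For mir-6240-p5 every MITF overexpression library lies below every control library, and for mir-5112-p5 every one lies above, where 2 control libraries are at 0.

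The shorter mir-6240 row fell and the longer one did not pass the test. The row mir-6240-p5 held 4002, 1660 and 1439 reads with MITF overexpression, against 3614, 7095 and 6028 reads in control libraries. Scaled, these were 9149, 5631 and 4207 CPM, against 11815, 18496 and 13612 CPM. In CPM, though not in reads, every MITF overexpression library lay below every control library, with library 1 nearest to control library 1. The mean was 6329 ± 2544 CPM with MITF overexpression and 14641 ± 3457 CPM in controls (SD, n = 3 each), a log2 fold change of -1.21 ± 0.30 (SE) at an edgeR adjusted p of 0.0260. The call was lost without MITF overexpression library 2, 3 or control library 2, at edgeR adjusted p-values of 0.0892, 0.0978 and 0.0804 and log2 fold changes between -1.11 and -0.99.

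The longer row, mir-6240-p3, held 617, 634 and 509 reads with MITF overexpression, against 692, 634 and 561 reads in control libraries. These groups overlapped, at 1683 ± 407 CPM with MITF overexpression and 1727 ± 502 CPM in controls (SD, n = 3 each). Its log2 fold change was -0.04 ± 0.27 (SE) at an edgeR adjusted p of 0.940, and its sign turned under total-count scaling (0.14).

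The ratio of the shorter to the longer row within a library is free of scaling. It was 6.49, 2.62 and 2.83 with MITF overexpression, against 5.22, 11.2 and 10.7 in control libraries. Library 1 of each group stood apart from the other two of its group, and the groups overlapped. The difference in mean log2 ratio was -1.24, with a two-sided exact permutation p of 0.2, where 3 against 3 libraries cannot go below 0.1. A difference in behaviour between the 2 rows was thus not shown. Summed, the mir-6240 rows stood at 8012 ± 2441 CPM with MITF overexpression and 16368 ± 3298 CPM in controls (SD, n = 3 each), with a log2 fold change of -1.05 ± 0.24 (SE) and an edgeR adjusted p of 0.0177. In that fit, where the rows of a precursor are added up, 15.9% of 439 tested entries were called, and the mir-6240 sum did not pass without MITF overexpression library 2, 3 or control library 2 (edgeR adjusted p = 0.0788, 0.0938 and 0.0703).

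**Figure D2:**
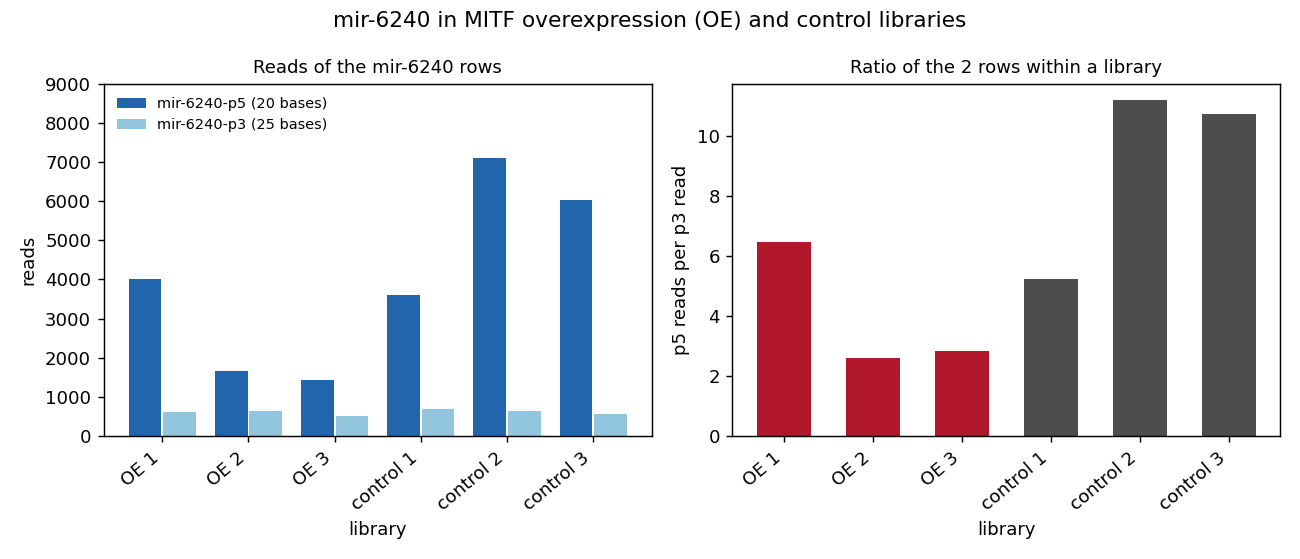
Left, reads of the 2 mir-6240 rows in each library, MITF overexpression (OE) left of control. Right, reads of mir-6240-p5 per read of mir-6240-p3 in the same libraries, where OE library 1 (6.49) is above control library 1 (5.22) and the other 2 OE libraries are below all controls.

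The authors' class of ribosomal RNA reads, taken from all reads of a library, was also lower with MITF overexpression. It was 6.50%, 5.68% and 5.91% of raw reads, against 6.65%, 7.55% and 7.40% in controls. Whether mir-6240 reads are pieces of ribosomal RNA was not tested, since the longest transcript of the ribosomal RNA class among the 141767 searched had 1849 bases, too short for the large rRNA. Neither mir-6240 row matched any searched transcript on either strand.

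The other 2 abundant precursors did not pass the test. The row mir-5108-p3, from a hairpin on chromosome 10 inside an intron of H2afy2 on the opposite strand, differed from the hairpin by T6G. It held 2974, 2276 and 1214 reads with MITF overexpression, against 1138, 2062 and 3715 reads in control libraries. High and low libraries occurred in both groups, at 6023 ± 2191 CPM with MITF overexpression and 5828 ± 2367 CPM in controls (SD, n = 3 each). The log2 fold change was 0.05 ± 0.35 (SE) at an edgeR adjusted p of 0.940, and its sign turned (-0.05) where scaling was done without the most abundant row.

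The row mir-6236-p5 was named for a hairpin on chromosome 9 outside annotated protein-coding and long noncoding genes, and differed from that hairpin by G21C. It held 484, 361 and 226 reads with MITF overexpression, against 298, 387 and 314 reads in controls. The groups overlapped, with a log2 fold change of 0.15 ± 0.27 (SE) at an edgeR adjusted p of 0.760. Its partner mir-6236-p3 covered hairpin bases 59 to 79, downstream of bases 33 to 56 for p5, without sharing bases. It crossed the middle of the 123-base hairpin, base 62, and was centred on base 69. The sum of both rows had a log2 fold change of 0.14 ± 0.26 (SE) at an edgeR adjusted p of 0.762.

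The highest fold change belonged to mir-5112-p5, named for a hairpin that overlaps an exon of the long noncoding gene AC113104.3. The row differed from that hairpin by G2C, at the first base of the seed. It held 48, 107 and 21 reads with MITF overexpression, against 0, 6 and 0 reads in control libraries. All MITF overexpression libraries were above all controls, but they spread widely, from 61.4 to 363 CPM. The mean was 178 ± 162 CPM with MITF overexpression and 5.21 ± 9.03 CPM in controls (SD, n = 3 each), a ratio of means of 34.1 that rests on 6 control reads. The log2 fold change was 4.97 ± 1.09 (SE) at an edgeR adjusted p of 0.0215. Without MITF overexpression library 2 or 3 the row did not pass, with edgeR adjusted p-values of 0.108 and 0.0690 and log2 fold changes of 3.98 and 5.40. Without control library 2, which holds all its control reads, the fitted log2 fold change was 9.01, a value that depends on the prior count. The row matched no other transcript searched.

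**Figure D3:**
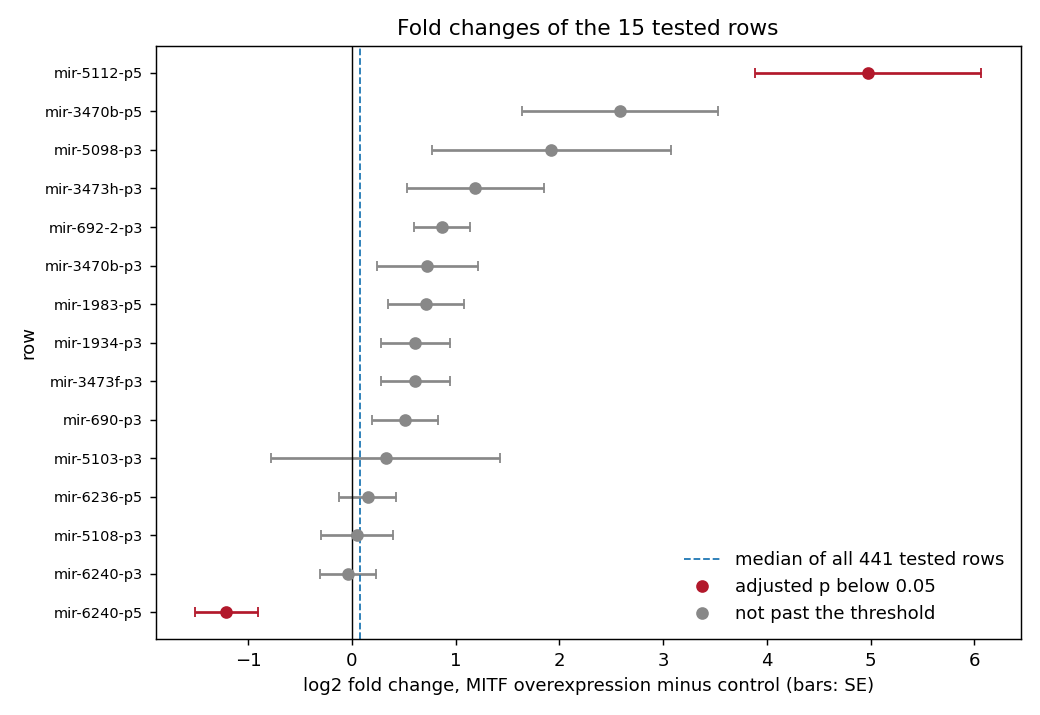
Log2 fold change (MITF overexpression minus control, with SE) of the 15 tested rows by edgeR, coloured where the adjusted p was below 0.05. The point of mir-5112-p5 is at 4.97 and that of mir-6240-p5 at -1.21, and the dashed line marks the median of all tested rows, 0.08.

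Rows whose sequence is also a piece of ferritin messenger RNA formed a small group. Ferritin light chain, the product of Ftl1, is a subunit of the shell that stores iron in cells. The rows mir-692-2-p3, mir-692-2-p5 and mir-692-1-p5, the last 2 with the same sequence, each matched the Ftl1 messenger RNA exactly, as did the annotated row miR-692. On transcript Ftl1-201 (968 bases, coding bases 254 to 805) the p5 sequence lay at bases 737 to 758, miR-692 at 771 to 790 and mir-692-2-p3 at 799 to 817, across the end of the coding sequence. The mir-692 hairpins themselves are on chromosomes 4 (chr4:125504749-125504857, GRCm38, in an intron of Grik3) and 17, and Ftl1 is on chromosome 7. Against their hairpins the rows carried substitutions, G19A in mir-692-2-p3 and A21G in the p5 rows. The substituted base is the one in Ftl1, so these reads fit the messenger RNA without a mismatch.

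The row mir-692-2-p3 held 168, 116.5 and 114 reads with MITF overexpression, against 55.5, 71.5 and 105 reads in control libraries. Scaled, it was at 384, 395 and 333 CPM, against 181, 186 and 237 CPM. Every MITF overexpression library was above every control library. The mean was 371 ± 33.0 CPM with MITF overexpression and 202 ± 30.8 CPM in controls (SD, n = 3 each), and the log2 fold change of 0.87 ± 0.27 (SE) narrowly missed the threshold at an edgeR adjusted p of 0.0534. Added to mir-692-2-p5 it passed, at 383 ± 42.9 CPM with MITF overexpression and 202 ± 30.8 CPM in controls, with a log2 fold change of 0.91 ± 0.26 (SE) and an edgeR adjusted p of 0.0403. That call was lost whichever library was left out, at edgeR adjusted p-values of up to 0.123.

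The p5 sequence had 10.5 and 3.5 reads per row in MITF overexpression libraries 1 and 2 and none elsewhere. The annotated miR-692 row held 27, 30.5 and 21 reads with MITF overexpression, against 2.5, 12.5 and 16 reads in control libraries, again without overlap. Its log2 fold change was 1.56 ± 0.72 (SE) and did not pass (edgeR adjusted p = 0.150). The 3 rows named for precursor arms summed to 432, 419 and 333 CPM with MITF overexpression, against 181, 186 and 237 CPM in controls. The authors' class of messenger RNA reads also lay above the controls in each library, with 4.41%, 4.59% and 4.12% of raw reads under MITF overexpression, against 2.13%, 3.65% and 3.34% in controls, and its part in the ferritin rows was not tested.

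Other rows matched messenger RNAs at low levels. Both mir-682 rows lie within the coding sequence of Rpl37a, a protein of the large ribosomal subunit, at bases 183 to 206 and 244 to 261 of transcript Rpl37a-201, while the mir-682 hairpin is on chromosome 13 and Rpl37a on chromosome 1. Reads of mir-682-p5 were 5 and 10 in MITF overexpression libraries 1 and 2, and those of mir-682-p3 were 6 in library 2, with none in controls. Their sums of 5, 16 and 0 reads with MITF overexpression were too low to be tested. The hairpin of mir-546 overlaps an exon of Ctdsp2 and that of mir-5625 an exon of Slc35f6. These rows match their own host transcripts, in the 3′ UTR and the 5′ UTR. Each held 7 reads in MITF overexpression library 3 and none elsewhere.

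Exact matches to other RNAs were frequent over the members as a whole. Of the 47 rows, 23 (48.9%) matched a protein-coding transcript in sense, against 30 of 455 annotated mouse rows (6.59%) and 3.97% of all rows. At least 20 genes were matched by 14 rows (29.8%), against 2.42% of annotated rows and 1.73% of all rows. Of the 14, 13 also matched at least 20 genes in antisense. Whether these rows come from repeats, interspersed or simple, was not tested. No searched transcript was matched on either strand by 42.6% of the 47 rows, against 70.5% of annotated rows. The median GC content was 61.1% in the 47 rows, against 50.0% in annotated rows and 44.2% in all rows. Median length was 21 bases, against 22 and 20.

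A hairpin sequence was at hand for 44 of the 47 rows, 32 from RefSeq and 12 from GENCODE M21. All 44 lay in their hairpin once the named substitution was put back, which 30 of them needed. Their centre was on the side that the arm name gives in 42. The exceptions were mir-6240-p3, centred on the middle, and mir-877-p3, centred on the 5′ side, 4.5 bases from the middle. Of 38 precursors with a position and strand on GRCm38, 16 lay in an intron of a gene on the same strand, and 8 overlapped an exon of such a gene. A further 4 lay in a gene on the opposite strand and 10 in no gene. Only protein-coding and long noncoding genes were counted here, and pseudogenes and small RNA genes were left out. GGAG or CCCT, motifs reported in microRNAs exported in vesicles, occurred on the row's strand in 31.9% of the 47 rows, against 20.4% of annotated rows and 17.9% of all rows. These rows are not independent, since 4 of them hold GGAG within the shared stretch of 17 bases. The part of the higher GC content of the 47 rows in this share was not tested.

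Of the 6 tested rows that match at least 20 genes, none passed the edgeR or DESeq2 test after adjustment, and 1 had an unadjusted p below 0.05 in each. The row mir-3470b-p5, matching 263 genes in sense and 246 in antisense, held 48.5, 49 and 18 reads with MITF overexpression, against 13, 0 and 6 reads in control libraries. The groups did not overlap, at 110 ± 56.8 CPM with MITF overexpression and 18.7 ± 21.7 CPM in controls (SD, n = 3 each). Its log2 fold change was 2.58 ± 0.95 (SE) at an edgeR adjusted p of 0.0865. The row mir-3470b-p3, matching 531 genes in sense and 507 in antisense, held 81, 77 and 32 reads with MITF overexpression, against 19, 64 and 42 reads in controls, and its groups overlapped, with a log2 fold change of 0.73 ± 0.48 (SE) at an edgeR adjusted p of 0.331. Both rows summed to 290 ± 141 CPM with MITF overexpression and 127 ± 34.9 CPM in controls, with a log2 fold change of 1.17 ± 0.41 (SE) and an edgeR adjusted p of 0.0716.

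The row mir-5098-p3 held 25, 8 and 11 reads with MITF overexpression, against 6, 0 and 5 reads in control libraries. It matched 519 genes in sense and 535 in antisense and shared 19 bases with mir-1954-p3, a row with 6.5 reads in MITF overexpression library 1 alone. Its groups did not overlap, and the log2 fold change was 1.92 ± 1.15 (SE) at an edgeR adjusted p of 0.269. Spacing was counted in the longest transcript of each gene only, so the gene totals are lower than the numbers of genes matched. The sequence of mir-5098-p3 was followed by that of mir-3470b-p5 within 100 bases in 45 of 338 genes (13.3%), at a distance of 31 bases in 44 of these. The sequence of mir-3470b-p5 was followed by that of mir-3470b-p3 in 39 of 173 genes (22.5%), at 38 bases in 37 of them. Where 2 of these sequences lay so close, their spacing was thus nearly always the same.

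Of the 4 rows with the shared stretch of 17 bases, 3 were tested. The rows mir-1934-p3 and mir-3473f-p3 carry the same sequence and the same split reads. The mir-1934 hairpin is on chromosome 11, outside annotated protein-coding and long noncoding genes, and the mir-3473f hairpin is on chromosome 1 in an intron of Bcl2. Each row held 153.5, 201 and 108 reads with MITF overexpression, against 75, 120 and 143 reads in control libraries. The groups overlapped, and the log2 fold change was 0.61 ± 0.33 (SE) at an edgeR adjusted p of 0.223. The row mir-690-p3, named for a hairpin in an intron of Fgf12, differed from that hairpin by T20C. It held 87, 66.6 and 85.4 reads with MITF overexpression, against 36, 62.5 and 85 reads in controls. In CPM its groups did not overlap, and its log2 fold change was 0.51 ± 0.32 (SE) at an edgeR adjusted p of 0.290. With 4 genes in sense and 5 in antisense it matched far fewer genes than mir-1934-p3, at 170 and 159.

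The row mir-3473h-p3 matched 121 genes in sense and 132 in antisense, and held 28.5, 43.5 and 11 reads with MITF overexpression, against 12.5, 11.5 and 15.5 reads in control libraries. MITF overexpression library 2 stood highest and library 3 among the controls, and the log2 fold change was 1.19 ± 0.66 (SE) at an edgeR adjusted p of 0.232. Summed over all 14 rows matching at least 20 genes, levels were 1158, 1989 and 922 CPM with MITF overexpression, against 656, 847 and 808 CPM in control libraries. The libraries did not overlap, with a ratio of means of 1.76. The authors' class of repeat reads ran the same way, at 0.513%, 0.475% and 0.569% of raw reads, against 0.383%, 0.463% and 0.437%, but the library with the highest row sum, MITF overexpression library 2, had the lowest repeat share of its group. The part of that class in these rows was not tested.

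**Figure D4:**
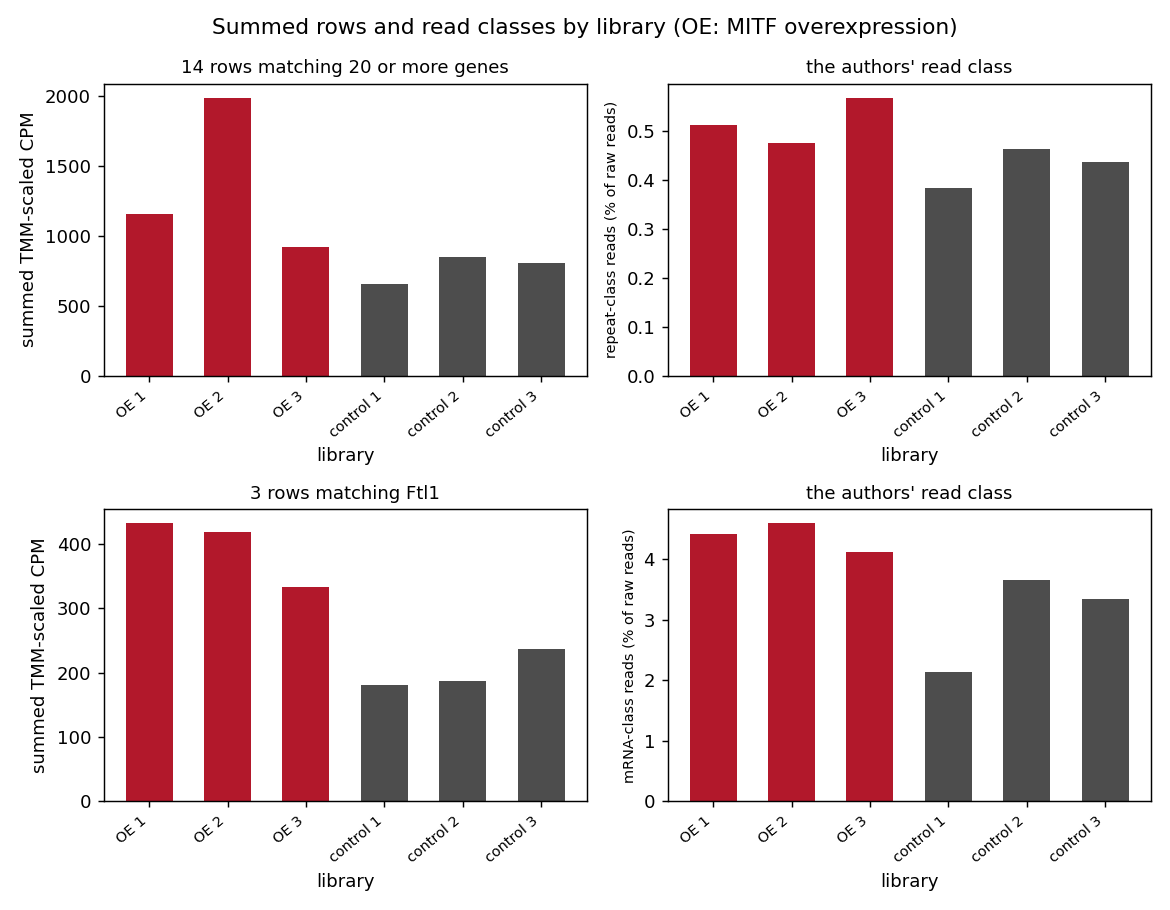
Summed CPM per library of the 14 rows that match at least 20 genes (top left) and of the 3 rows that match Ftl1 (bottom left), beside the share of raw reads that the authors classed as repeat (top right) and messenger RNA (bottom right), MITF overexpression (OE) left of control. In each panel the 3 OE libraries lie above the 3 control libraries.

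Of the remaining tested rows, mir-1983-p5 comes from the precursor that overlaps a transfer RNA gene. It held 73, 60 and 56 reads with MITF overexpression, against 26, 34 and 66 reads in control libraries. In CPM the groups did not overlap, at 178 ± 22.1 CPM with MITF overexpression and 108 ± 36.0 CPM in controls (SD, n = 3 each), and the log2 fold change of 0.72 ± 0.36 (SE) did not pass (edgeR adjusted p = 0.195). The annotated miR-1983 row held 164, 115 and 175 reads with MITF overexpression, against 120, 172 and 166 reads in controls, with overlap and a log2 fold change of 0.07 ± 0.25 (SE). The difference between the 2 rows was not tested. Reads classed as transfer RNA by the authors made up 4.71%, 4.78% and 5.56% of raw reads under MITF overexpression, against 2.87%, 3.42% and 4.84% in controls, with overlap, and nuclear transfer RNAs were not among the transcripts searched.

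The row mir-5103-p3 was named for a hairpin that overlaps an exon of the long noncoding gene Gm37233, and differed from that hairpin by A14G. It held 24, 0 and 19 reads with MITF overexpression, against 9, 16 and 8 reads in control libraries. Library 2 with MITF overexpression stood apart at 0, and the log2 fold change was 0.33 ± 1.10 (SE) at an edgeR adjusted p of 0.874.

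Below the filter, 5 rows had reads in at least 3 libraries or at least 20 reads in 1 library. The row mir-8114-p5 was named for a hairpin that overlaps an exon of Glul, the gene of glutamine synthetase, and differed from that hairpin by G20A. It had 9, 5 and 5 reads with MITF overexpression and none in control libraries. The row mir-3473d-p3 had 12, 12 and 7.6 reads with MITF overexpression and none in control libraries. These were the only members seen in all 3 libraries of a group and in none of the other. How many of all rows had this pattern was not counted, so it is not read as particular to them. The row mir-3470a-p3 had 0, 6 and 21 reads with MITF overexpression and none in controls. In the opposite direction, mir-3062-p5 held 10, 0 and 7 reads with MITF overexpression, against 9, 27 and 26 reads in controls. Its hairpin overlaps an exon of Pfas, the gene of an enzyme of purine synthesis, but the row itself matched no searched transcript. The row mir-6944-p5 held 8, 5 and 7 reads with MITF overexpression, against 14, 0 and 7 reads in controls. Added to mir-6944-p3 it came to the same 8, 5 and 7 reads with MITF overexpression, against 14, 0 and 13 reads in controls. A count of 0 allows up to 3 reads. Scaled to tabulated reads, without TMM factors, this is 6.68 to 10.7 CPM in MITF overexpression libraries and 6.30 to 8.75 CPM in control libraries. These limits are thus not on the same scale as the TMM-scaled levels given for the rows.

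The other 27 untested rows reached 1.67 to 11 reads in their highest library. Of these, 19 were seen with MITF overexpression only, 7 in controls only and 1, mir-3970-p5, in both. They added up to 159.8 reads with MITF overexpression and 44.5 reads in controls. Among them mir-877-p3, from the precursor of a known mirtron, an intron that is spliced out as a hairpin, had no reads with MITF overexpression, against 5, 0 and 7 reads in controls.

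For 8 annotated rows the precursor also had a row among the 47, and 4 of them were tested, none passing in edgeR (0 at an unadjusted p below 0.05) or, after adjustment, in DESeq2 (1 at an unadjusted p below 0.05). Besides miR-692 and miR-1983, these were miR-877-5p and miR-3473b. The row of miR-877-5p held 337, 289 and 333 reads with MITF overexpression, against 268, 245 and 362 reads in controls, with a log2 fold change of 0.22 ± 0.23 (SE) and an edgeR adjusted p of 0.539. The row of miR-3473b held 76.5, 103.67 and 70.25 reads with MITF overexpression, against 19.2, 78.3 and 60.8 reads in controls. Its log2 fold change was 0.84 ± 0.46 (SE) at an edgeR adjusted p of 0.223, and its groups overlapped. The annotated rows miR-3473e and miR-5128 had the same values in every library, so this result is not particular to miR-3473b. The untested ones were low: miR-1946a held 0, 11 and 6.5 reads with MITF overexpression, against 0, 0 and 2.5 reads in controls, and miR-3470a 39, 0 and 5, against none. The row of miR-8114 held 11, 0 and 5 reads with MITF overexpression, against 0, 0 and 6, and that of miR-3473d 0, 0 and 6, against 0, 7 and 5.

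Summed over all 47 rows, the level was 20743, 20181 and 11838 CPM with MITF overexpression, against 19933, 27945 and 25515 CPM in control libraries. The groups overlapped, at 17587 ± 4987 CPM with MITF overexpression and 24464 ± 4108 CPM in controls (SD, n = 3 each). Without mir-6240-p5 the sums were 11258 ± 3472 CPM with MITF overexpression and 9824 ± 1920 CPM in controls, which again overlapped.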

How the data were processed

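Per the labels' protocols, small RNA libraries were made with the TruSeq kit from 3 MITF overexpression and 3 control samples. The authors deposited estimated counts per sequence, which need not be whole because reads that match several rows are split, and, per the file headers, kept reads of 18 to 26 bases. Beside these stands a normalized signal, per the file headers, which was found to be the deposited estimated count over 1 factor per library. A further deposited table gives the count of reads in each class per library. The authors' group means, folds and p-values were not used here, nor were 4 empty lines. The build was mm9, per the submitters' processing notes; the aligner and counter: not given in the sources used here.

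Estimated counts, in place of the whole counts first planned for, were rounded and tested over all rows with edgeR 4.0.16 in R 4.3.3 (TMM scaling, filterByExpr with a minimum count of 10, quasi-likelihood test, group as the only term), adjusted by Benjamini-Hochberg at 0.05 over 441 rows, and again after adding up the rows of each precursor. Standard errors are those implied by the fold change and its test statistic. Alternatives were other scalings, DESeq2 1.42.0, limma 3.58.1 on log2 of the deposited signal plus a pseudocount of 1 or 5, no filter, a replicate block, identical sequences added up, mouse-named rows only, and each library left out. The procedure was tested on simulated data.

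The members and lists were chosen with earlier results of these data known. Every member past the filter is named, as are untested members with reads in at least 3 libraries or at least 20 reads in 1 and annotated rows of the same precursors; other untested rows that appear by name (the mir-692 p5 rows, mir-682, mir-546, mir-5625, mir-1954, mir-6413, mir-877, mir-3970 and the p3 row of mir-6236) share a precursor, sequence or messenger RNA with these or were singled out after their values were seen. Exact matches were sought in 141767 GENCODE M21 transcripts; hairpins and positions come from RefSeq and GENCODE on GRCm38, another build than that of the authors, with no conversion between them. Intervals and floors cover counting error only, since reads carry no molecular identifiers. Reads of near-identical rows, and of a row and any other RNA with the same sequence, cannot be told apart.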

Additional observations from a re-analysis of the deposited data

Results flagged for a closer look

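The row mir-8114-p5 had 19 reads over the 3 MITF overexpression libraries and none in any control library, and mir-3473d-p3 had 31.6 reads and likewise none in controls. Both were too low to be tested, and stood above the control level in every MITF overexpression library. How many of all rows were seen in all 3 libraries of a group and in none of the other was not counted. In all, 22 of the 47 rows (46.8%) were seen with MITF overexpression only, close to the 46.7% of all rows.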

How the results depend on the processing

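Counts of calls depended on the processing. Over all tested rows, 44 higher and 23 lower rows in the edgeR fit became 62 and 15 under total-count scaling, 44 and 37 with the most abundant row left out, 67 and 43 with DESeq2, 76 higher with limma at a pseudocount of 5 and 26 higher among 286 mouse-named rows tested alone; leaving out 1 library gave 0 to 41 higher and 0 to 23 lower. Low were the edgeR counts without MITF overexpression library 3 (0 and 0, with 135 rows at an unadjusted p below 0.05), MITF overexpression library 2 (11 and 3), control library 2 (7 and 4) and control library 3 (8 lower). Among the members, 1 higher row became 2 under total-count scaling, with the most abundant row left out, with DESeq2, without a filter, with limma at a pseudocount of 1 and among mouse-named rows, and 3 with limma at a pseudocount of 5; leaving out 1 library gave 0 to 2 higher and 0 to 1 lower members. Same-numbered libraries did not deviate together (correlations of -0.05, 0.04 and -0.01), which shows no pairing by number but cannot exclude it with so few libraries. With the replicate block 1 row was higher and 1 lower over all rows and 0 members in each direction (3 members at an unadjusted p below 0.05). In that fit the edgeR adjusted p was 0.0754 for mir-6240-p5 and 0.0536 for mir-5112-p5.

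Signs turned for 3 rows, none of which was called. The row mir-6240-p3 was at 0.14 under total-count scaling, 0.0099 and 0.0097 with limma at pseudocounts of 1 and 5 and 0.0294 among mouse-named rows, and -0.19 to 0.16 without 1 library. The row mir-5108-p3 was at -0.0540 with the most abundant row left out, -0.0172 without a filter (its precursor sum -0.0097) and -0.23 to 0.45 without 1 library (sum -0.23 to 0.41). The row mir-5103-p3 was at -0.0941 with the block (sum -0.0876), -0.52 and -0.0376 with limma, and -0.11 to 0.95 without 1 library (sum -0.12 to 0.92). The causes were not tested. The row mir-692-2-p3 passed in 5 of 16 alternatives and mir-3470b-p5 in 3 of 16. Total-count scaling moved the median log2 fold change of all tested rows by 0.16, and the restriction to mouse-named rows by -0.11. Larger shifts came without a filter (1.89), without control library 2 (0.22) and without control library 3 (0.21), each over the rows of its own fit. Low reads limit what 32 of the 47 rows can show.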
